A study of Mus musculus with 10 samples.

Results

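The response of mouse CGR8 cells to EBIO was compared between undifferentiated embryonic stem (ES) cells and cells differentiated from them. The measure was the EBIO effect in differentiated cells minus the EBIO effect in ES cells, each effect being EBIO minus control on the log2 scale within its own set of arrays. A gene entered the comparison where its group mean lay above the median of all probe sets of the array in at least 1 group of ES cells and at least 1 group of differentiated cells. This left 11092 of 18193 named genes, and 10033 of them (90.5%) lay above the array median in all 4 groups. At the edge of the rule, Trpv4 and Fam151a passed by the smallest margins, and Acsm2 and Atxn7l1 missed by the smallest.

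All 10 samples came from 1 ES cell line, CGR8, of strain SV129. The ES groups were untreated cells (n = 3) and cells given 1 mM EBIO for 3 days (n = 3), both from passages 25, 26 and 27. The differentiated groups were kept for 5 days as embryoid bodies and then for 10 days without (n = 2) or with EBIO (n = 2). The labels give no EBIO dose for the differentiated cells. Samples of a group are described as independent experiments on this line. The p-values rest on the spread between those experiments, which the limma fit partly borrows from other genes. For the difference that spread is pooled over both stages. Stage, length of treatment, dose if it differed and array set change together here and cannot be told apart, so "stage" below stands for all of them.

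EBIO (1-ethyl-2-benzimidazolinone) opens potassium channels that are gated by intracellular calcium, and the series' title concerns such channels in heart cell formation and pacemaker-like cells. ES cells hold a network of pluripotency factors, a rounded shape with little contractile cytoskeleton, and fast division. Embryoid bodies give rise to a mixture of heart muscle, fibroblasts, endothelium, endoderm and blood cells, and heart muscle relies on mitochondrial respiration and fatty acid oxidation rather than glycolysis.

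The arrays of the stages had different distributions, with medians from 4.52 to 4.62 in ES cells and from 5.59 to 5.68 in differentiated cells, so levels are not compared across stages. Residual spread was larger among ES arrays (median SD 0.184) than among differentiated arrays (0.074), so the same log2 effect was more readily called in differentiated cells. The ES control array of passage 27 correlated least with its replicates (0.982 and 0.988). The difference between 3′ and 5′ probe sets of Actb, a sign of RNA integrity, was 0.424 ± 0.087 in control and 0.142 ± 0.062 in EBIO-treated ES cells (SD, n = 3 each) and 0.432 ± 0.039 and 0.462 ± 0.021 in differentiated cells (n = 2 each); its part in the results was not tested. Of the marker sets for the labelled cells, ES cell markers averaged 11.48 to 11.72 on control ES arrays and 8.46 to 8.95 with EBIO. Heart muscle markers averaged 8.39 to 8.48 on control differentiated arrays and 13.09 to 13.11 with EBIO, and Tnnt2, Myh6 and Nppa were below the array median on every ES array.

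EBIO changed much of the transcriptome at both stages, and the size or direction of the change differed between stages for many genes. In ES cells 5239 genes (47.2%) were called, of which 2872 (25.9%) were higher and 2367 (21.3%) lower with EBIO. In differentiated cells 7228 (65.2%) were called, of which 3845 (34.7%) were higher and 3383 (30.5%) lower. The EBIO effect differed between stages for 5071 genes (45.7%, limma with Benjamini-Hochberg adjustment at 0.05), with a more positive effect in differentiated cells for 2311 (20.8%) and a more negative one for 2760 (24.9%). For 2691 genes (24.3%) the effects differed by at least 1 log2 unit, while the median standard error of a difference was 0.206. The share of calls that were more positive in differentiated cells was 45.6%, and it moved to 57.7% when each array was centred and scaled to 1 interquartile range and to 50.7% after quantile normalization of all arrays together. These scalings moved the median difference over all genes from 0.02 to 0.18 and 0.08, so small differences of 1 sign are read against that shift.

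The genes fell into 4 classes. Genes called in both stages numbered 3708 (33.4%), and 64.9% of them moved the same way. A called difference in size was found for 938 shared genes (8.46% of all genes tested). Shared responses, called in both stages with the same sign, took in 2405 genes (21.7%), 1337 higher (12.1%) and 1068 lower (9.63%). Opposite responses, called in both stages with different signs and with the difference called, took in 1302 genes (11.7%), 750 of them higher in ES cells (6.76%) and 552 lower (4.98%). ES-specific responses, called in ES cells and not in differentiated cells with the difference called, took in 1142 genes (10.3%), 606 higher (5.46%) and 536 lower (4.83%). The matching differentiated-specific responses took in 1639 (14.8%), 840 higher (7.57%) and 799 lower (7.2%). Of these classes, 1176 opposite (10.6%), 2077 shared (18.7%), 1091 ES-specific (9.84%) and 1413 differentiated-specific genes (12.7%) lay above the array median in all 4 groups. The remaining 4604 genes (41.5%) had no class. Among them 2333 (21.0% of all genes tested) were called in neither stage, and 1 (0.00902%) was called in both with different signs but without a called difference. A stage-specific class says that a call was missed in the other stage, not that the effect there was 0.

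Strong responses were those of a class with a change of at least 1 log2 unit in the stage or stages that gave the call. As shares of all genes tested, 387 responses were shared and strong (3.49%), 155 higher (1.4%) and 232 lower (2.09%). Strong opposite responses numbered 150 (1.35%), 106 higher in ES cells (0.956%) and 44 lower there (0.397%). Strong ES-specific responses numbered 468 (4.22%), with 292 rises (2.63%) and 176 falls (1.59%), and strong differentiated-specific ones 621 (5.6%), with 235 rises (2.12%) and 386 falls (3.48%). Rises thus led among strong opposite and ES-specific responses, taken in ES cells, and falls among the others. Of the strong responses, 265 shared (2.39%), 110 opposite (0.992%), 434 ES-specific (3.91%) and 478 differentiated-specific (4.31%) lay above the array median in all 4 groups. RMA compresses the dim end of an array, so a change that begins or ends below the median is a lower bound. Across the 11092 genes the effects of the stages correlated weakly (Pearson r = 0.202, Spearman rho = 0.217, a description across genes, which are not independent replicates). Their spread over genes was alike, with an SD of 0.89 in ES cells and 0.86 in differentiated cells.

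**Figure D1:**
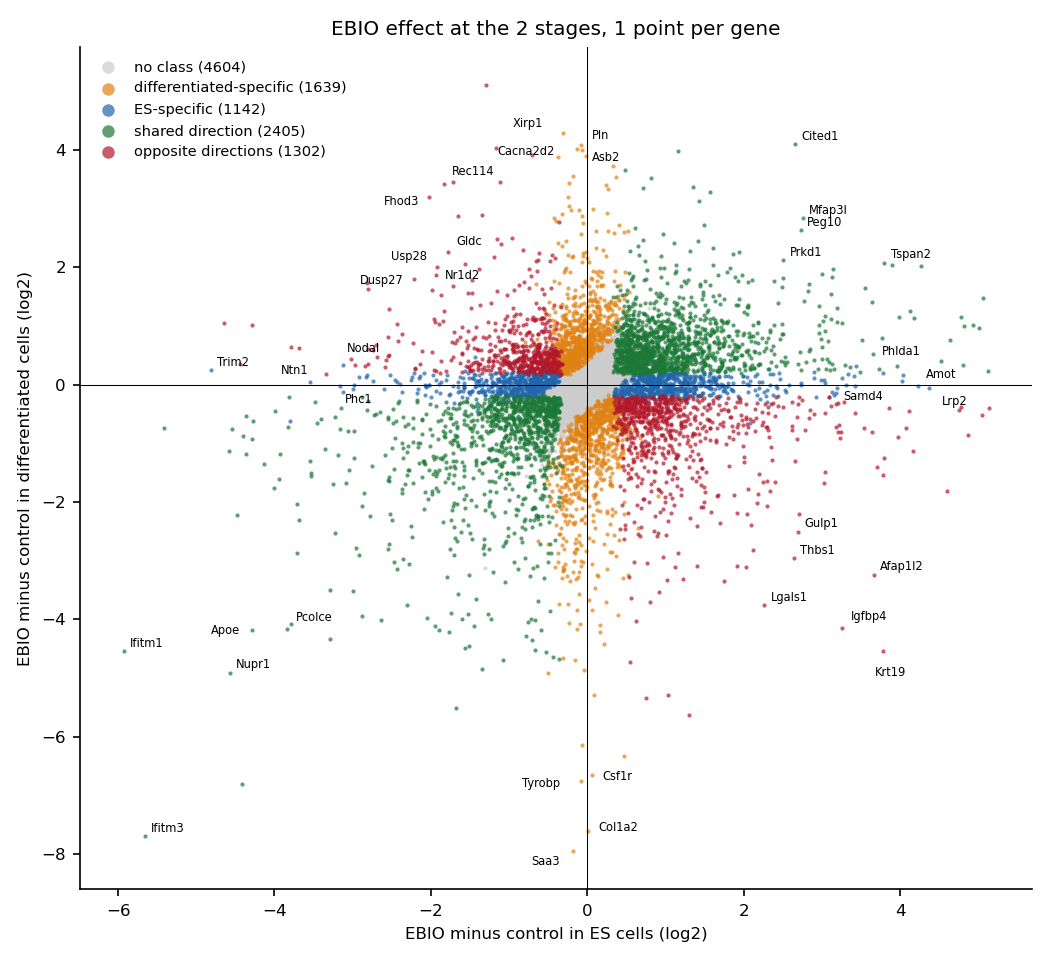
EBIO effect of each gene tested (1 point per gene) in ES cells on the x axis and in differentiated cells on the y axis, both as EBIO minus control in log2 units, coloured by class with the number of genes in each. The 1302 opposite responses fill the upper left and lower right, and Krt19 and Igfbp4 lie farthest into the lower right.

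The strongest opposite responses in one direction were genes that EBIO raised in ES cells and lowered in differentiated cells. Krt19 is a keratin of simple epithelia. Its log2 values were 6.08, 5.64 and 6.12 in control and 10.11, 9.33 and 9.74 in EBIO-treated ES cells, and 11.61 and 11.53 in control and 6.94 and 7.11 in EBIO-treated differentiated cells. It rose by 3.78 ± 0.21 (SE, 13.7-fold) in ES cells and fell by 4.55 ± 0.09 (23.4-fold) in differentiated cells, a difference of -8.33 ± 0.30 (adjusted p = 3.1e-08, limma). Control and EBIO arrays did not overlap at either stage, which was a condition for naming it here. Igfbp4 encodes a binding protein that holds insulin-like growth factors away from their receptor. It measured 5.09, 5.18 and 4.79 in control and 8.75, 8.53 and 7.57 in treated ES cells, and 12.38 and 12.33 in control and 8.11 and 8.29 in treated differentiated cells. Its effects were 3.26 ± 0.28 and -4.15 ± 0.08, and its difference was -7.41 ± 0.40 (adjusted p = 3.2e-07).

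Lgals1 encodes galectin-1, an abundant glycan-binding lectin of mesenchymal cells. It was bright in every group, at 10.26, 10.59 and 10.46 in control and 12.93, 12.67 and 12.49 in treated ES cells, and at 14.17 and 14.15 in control and 10.48 and 10.32 in treated differentiated cells. The effects were 2.27 ± 0.15 and -3.76 ± 0.08. Thbs1 encodes the matricellular protein thrombospondin-1, with control ES arrays at 4.89, 4.05 and 4.43, on average below the array median. EBIO-treated ES arrays read 7.25, 6.76 and 7.29, so the ES effect of 2.64 ± 0.23 is a lower bound, and the differentiated effect was -2.95 ± 0.12. Afap1l2, an adaptor of the actin filament-associated protein family, started as dim, with ES control arrays from 3.52 to 3.89 and an effect of 3.66 ± 0.15, against -3.24 ± 0.12 in differentiated cells. Gulp1, an adaptor for the engulfment of dying cells, had effects of 2.70 ± 0.28 and -2.50 ± 0.13. Control and EBIO arrays stood apart at both stages for all 6 genes, which was a condition for naming them.

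In the other direction, the strongest were genes that EBIO lowered in ES cells and raised in differentiated cells. Fhod3 encodes a formin that builds heart sarcomeres. It measured 5.61, 5.68 and 5.94 in control and 3.70, 3.67 and 3.81 in treated ES cells, where it ended below the array median. In differentiated cells it measured 7.47 and 7.54 in control and 10.68 and 10.73 with EBIO, giving effects of -2.02 ± 0.13 and 3.20 ± 0.07 and a difference of 5.22 ± 0.17 (adjusted p = 1.7e-08). Dusp27, an atypical phosphatase family member of striated muscle, fell from 6.72, 6.86 and 6.85 to 4.69, 4.59 and 4.50 in ES cells. It rose from 6.15 and 6.11 to 7.85 and 8.01 in differentiated cells.

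The other 4 genes of this direction have roles outside muscle. Nr1d2, a nuclear receptor of the circadian clock, measured 8.52, 8.63 and 8.72 in control and 6.41, 6.79 and 6.86 in treated ES cells, and 8.89 and 8.94 in control and 10.73 and 10.85 in treated differentiated cells. Its effects were almost equal in size, -1.93 ± 0.15 and 1.87 ± 0.07. Usp28, a deubiquitinating enzyme, likewise had effects of -1.93 ± 0.14 and 2.01 ± 0.07. Rec114, known from meiotic recombination, had effects of -1.83 ± 0.16 and 3.43 ± 0.07. Gldc encodes glycine decarboxylase, which feeds one-carbon metabolism, and had effects of -1.77 ± 0.13 and 2.27 ± 0.13, its differentiated control arrays lying below the median on average.

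**Figure D2:**
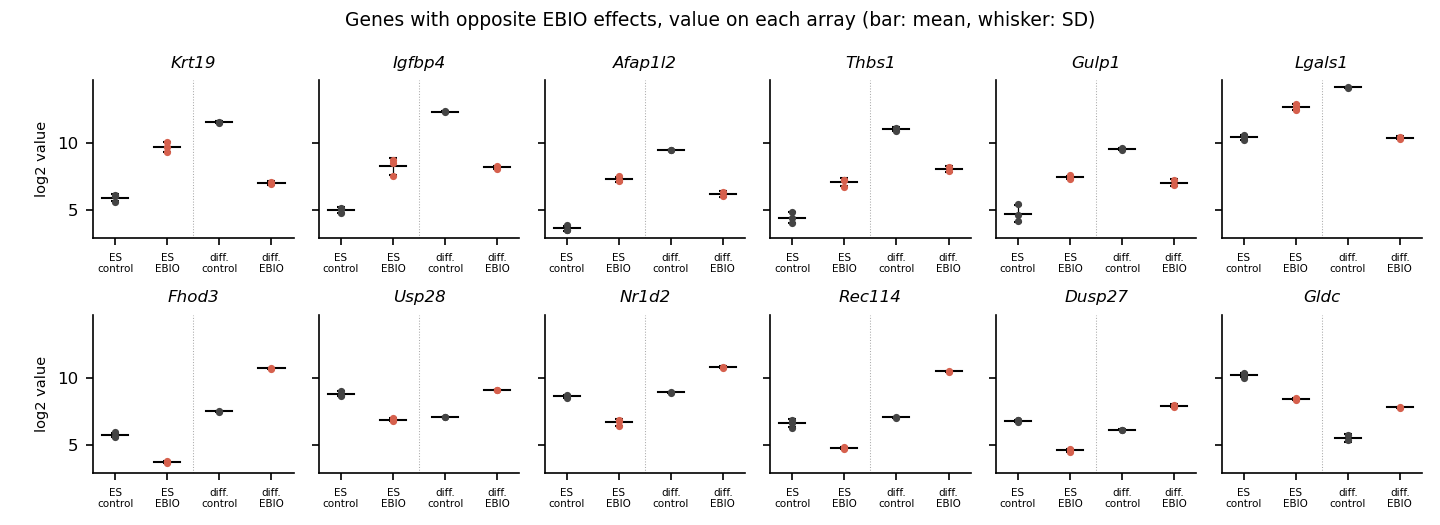
Log2 value on each array for the 12 strongest opposite responses, 6 raised in ES cells (top) and 6 lowered there (bottom), in control (grey) and EBIO (red) arrays, with the mean as a bar and the SD as a whisker. Each gene changes in one direction left of the dotted line (ES cells) and in the other right of it (differentiated cells), as Krt19 does with 3.78 and -4.55.

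Promoters of the strong opposite genes were searched on both strands of the 250 bases before the first listed RefSeq start (GRCm38.p6), where 80 of 106 genes raised in ES cells and 37 of 44 genes lowered there had an entry. The AP-1 motif TGANTCA stood in 6 of the 80 (7.5%), against 3.9% of the 8997 tested genes with an entry and 6.9% of all 27025 promoters of the table. They belong to Clic1, Gbp2, Met, Nfkbie, Plaur and Tnfaip3. Plaur encodes the urokinase receptor, Met the receptor of hepatocyte growth factor, and Nfkbie and Tnfaip3 inhibitors of NF-kappa B signalling. EBIO effects in ES and differentiated cells were 2.30 and -1.64 for Plaur, 1.42 and -1.18 for Met and 1.04 and -1.48 for Tnfaip3. The stretches of 3 of them are shown with the motif in capitals, from chr7:24462399-24462435 (plus strand), chr6:17463888-17463924 (plus strand) and chr10:19015525-19015561 (minus strand).
Plaur: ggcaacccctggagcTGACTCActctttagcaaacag
Met: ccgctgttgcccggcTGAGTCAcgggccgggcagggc
Tnfaip3: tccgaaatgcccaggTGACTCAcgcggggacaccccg
Among the 37 promoters of genes lowered in ES cells and raised in differentiated cells, the MEF2 site, a motif of muscle genes, stood in 2 (5.4%, against 0.4% of tested genes), those of Dusp27 and Ttn. Both carry the same 10 bases, at chr1:166127920-166127959 and chr2:76982689-76982728 (minus strand).
Dusp27: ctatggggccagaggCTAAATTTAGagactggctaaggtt
Ttn: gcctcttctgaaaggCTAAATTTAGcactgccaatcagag
The ATF4 element TGATGCAA, a motif of amino acid and stress-response genes, stood in 3 of the 37 (8.1%, against 0.5%), those of Chchd10, Got1 and Phyh. A match is a description of the letters and no test of binding, and these genes were named because they hold the motif. The TEAD motif GGAATG, the xenobiotic response element GCGTG and the CArG box described below were searched too, also in the strong shared genes. Only some of these shares are given. TEAD stood in 8 of the same 37 promoters (21.6%, against 10.3% of tested genes). AP-1 stood in 11 of 185 promoters of strong shared falls (5.9%).

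Annexins and S100 proteins, which bind calcium and membranes, had the largest median difference between stages, in size, of the lists with at least 14 genes tested. Of 16 members with a named probe set 14 were tested, and the difference was called more negative in differentiated cells for 12 and more positive for none, against 24.9% and 20.8% of all genes tested. The median effect was 1.36 in ES cells and -1.53 in differentiated cells, against -0.01 and 0.04 over all genes. Anxa2 measured 7.43, 6.49 and 7.42 in control and 12.40, 12.13 and 11.96 in treated ES cells, a rise of 5.05 ± 0.26, and fell from 12.83 and 12.83 to 12.32 and 12.30 in differentiated cells. S100a6 rose by 3.78 ± 0.34 in ES cells and fell by 1.54 ± 0.07 in differentiated cells. Anxa6 was the only tested member raised at both stages, by 1.65 and 1.06. In class, 7 were opposite and higher in ES cells, against 6.76% of all genes. The 4 members lower at both stages, against 9.63%, were Anxa8, S100a1, S100a13 and S100a16. Anxa7 and S100a4 were differentiated-specific and lower. Anxa6 and the other list members named here or below without a standard error were chosen after their values were seen.

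Of 14 tested matrix proteases, their inhibitors and collagen-crosslinking enzymes, 13 were more negative in differentiated cells, against 24.9% of all genes, and 6 were opposite, against 11.7%. The opposite members were Adamts1, Plod1, Serpinh1, Timp1, Timp2 and Timp3, all higher in ES cells. The metalloproteinase genes Mmp2, Mmp11 and Mmp14 were the 3 members lower at both stages, against 9.63% of all genes. Only 9 of the 14 lay above the array median in all 4 groups, and 8 of those 9 were called. Timp2, an inhibitor of matrix metalloproteinases, measured 6.06, 5.89 and 5.80 in control and 7.56, 7.71 and 7.71 in treated ES cells, and 12.26 and 12.31 in control and 8.90 and 8.98 in treated differentiated cells. Its effects were 1.74 ± 0.12 and -3.35 ± 0.07. Bgn, the small matrix proteoglycan biglycan, had effects of 1.30 ± 0.16 and -5.63 ± 0.08, the latter a lower bound in size since it ended below the median. Fibroblast markers averaged 12.96 to 12.99 on control differentiated arrays and 7.59 to 7.70 with EBIO, and Col1a1, Col3a1, Lum, Dcn and Postn were below the median on every ES array. In these bulk samples fewer cells of a type and less RNA per cell cannot be told apart.

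AP-1 factors couple growth and stress signals to transcription. Of 9 tested members 7 had a more negative effect in differentiated cells, against 24.9% of all genes, and 4 were opposite, against 11.7%. These were Fosl2, Fos, Junb and Maff, which rose in ES cells and fell in differentiated cells, with Fosl2 beginning below the ES array median. Fosl2 measured 3.59, 3.59 and 3.75 in control and 8.80, 8.82 and 8.71 in treated ES cells, and 9.96 and 9.82 against 9.41 and 9.57 in differentiated cells. Its effects were 5.13 ± 0.12 and -0.40 ± 0.09, so the fall was far smaller than the rise. Jun rose by 3.79 ± 0.12 in ES cells, from 4.88, 4.70 and 4.91 to 8.64, 8.53 and 8.68, with 0.19 ± 0.09 in differentiated cells (adjusted p = 0.094, not called). Jund and Mafk were raised at both stages.

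**Figure D3:**
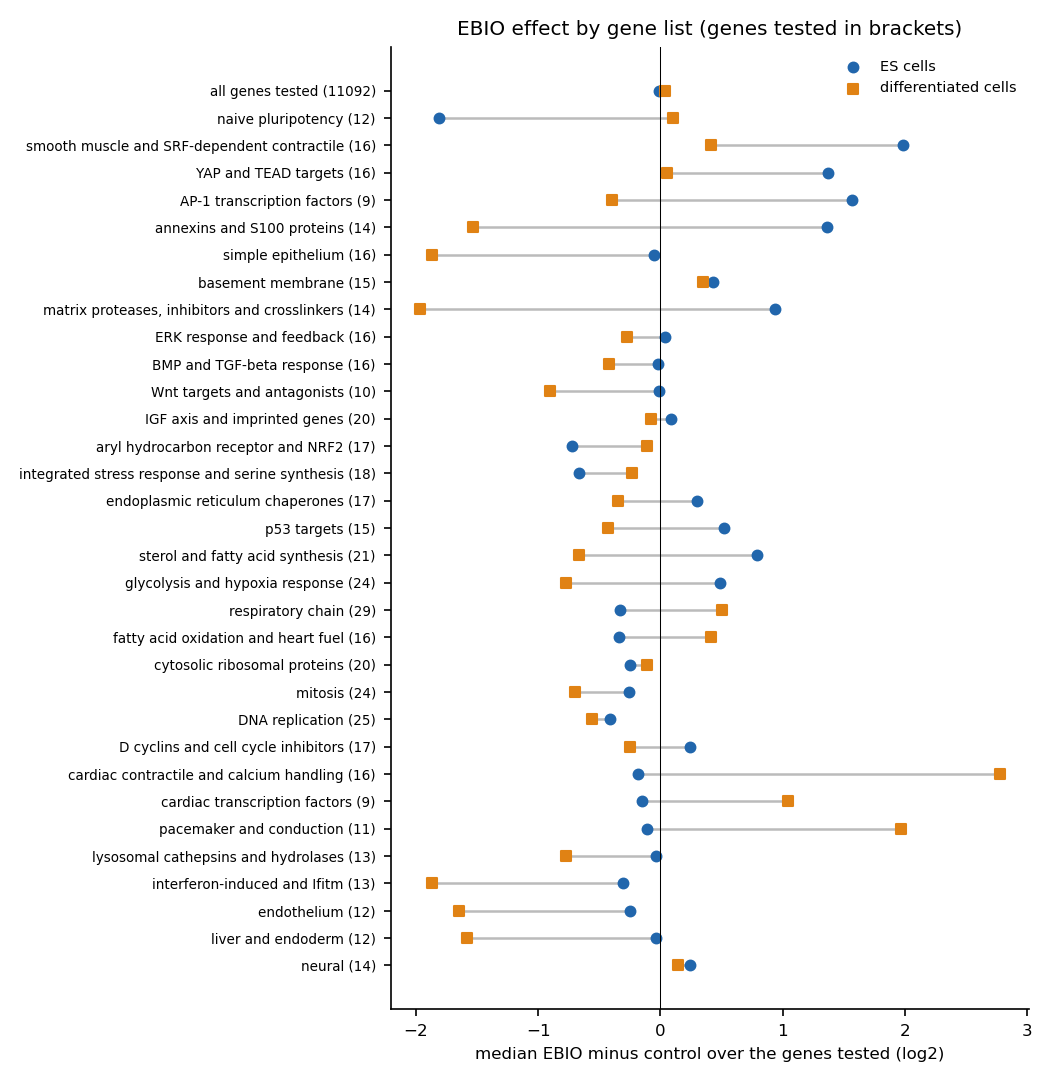
Median EBIO effect (EBIO minus control, log2) over the tested genes of each list with at least 9 tested genes, in ES cells (circles) and differentiated cells (squares), with the number of genes in brackets and all genes tested at the top. Annexins and S100 proteins lie at 1.36 and -1.53, and the respiratory chain lies the other way round at -0.33 and 0.50.

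Of 21 tested genes of sterol and fatty acid synthesis, 10 rose in ES cells and fell in differentiated cells, against 6.76% of all genes tested. All 21 members with a named probe set were tested and lay above the median in all 4 groups. The difference was called more negative in differentiated cells for 16 and more positive for 1, Acly, against 24.9% and 20.8% of all genes. The median effect was 0.79 in ES cells and -0.67 in differentiated cells, and the median difference of -1.54 was -1.13 after centring and scaling and -1.43 after quantile normalization. Scd1 encodes stearoyl-CoA desaturase, which makes monounsaturated fatty acids. It measured 6.11, 7.02 and 6.63 in control and 7.64, 9.03 and 8.17 in treated ES cells, and 8.96 and 8.82 against 6.49 and 6.58 in differentiated cells. Its effects were 1.70 ± 0.35 and -2.36 ± 0.08.

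Apart from Scd1, the opposite members run along the cholesterol pathway. They were Hmgcs1 at its start, and Idi1, Fdft1, Sqle, Cyp51, Msmo1, Hsd17b7, Sc5d and Dhcr7 further on. Sqle, squalene epoxidase, measured 8.41, 8.54 and 8.44 in control and 10.03, 10.48 and 10.27 in treated ES cells, and 10.20 and 10.24 against 9.75 and 9.83 in differentiated cells. Sc5d, a late desaturase of the pathway, had effects of 2.05 ± 0.17 and -0.71 ± 0.09, but its other 2 probe sets had the opposite sign in differentiated cells. Insig1, Fdps, Lss and Nsdhl were differentiated-specific and lower, and Fasn, fatty acid synthase, was raised at both stages.

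Of 24 tested glycolysis and hypoxia-response genes, 17 were more negative in differentiated cells and 4 more positive, against 24.9% and 20.8% of all genes, and 7 were opposite, against 11.7%. Pfkfb3, which makes the activator of phosphofructokinase, had effects of 3.25 ± 0.24, a lower bound because control ES arrays were below the median, and -0.81 ± 0.11. Slc2a3, a high-affinity glucose transporter, measured 12.56, 12.47 and 12.23 in control and 13.24, 13.10 and 13.21 in treated ES cells. It fell in differentiated cells from 11.41 and 11.50 to 8.26 and 8.56, a change of -3.05 ± 0.11. Hk1, hexokinase 1, and Slc2a1 were raised at both stages, with effects of 0.59 and 1.68 for Hk1 and of 2.12 and 0.84 for Slc2a1.

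The respiratory chain had a median below 0 in ES cells and above 0 in differentiated cells. All 29 members with a named probe set were tested and lay above the median in all 4 groups. The difference was called more positive in differentiated cells for 26 and more negative for none, against 20.8% and 24.9% of all genes. The median effect was -0.33 in ES cells and 0.50 in differentiated cells, and the median difference of 0.81 was 0.86 and 1.26 under the scalings that moved all genes by 0.08 and 0.18. In class, 12 were opposite, 11 differentiated-specific and higher, 2 ES-specific and lower, 1 shared and 3 had none. Single effects were small, since no member moved by 1 log2 unit in either stage.

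Ndufv1 and Ndufb3, both subunits of complex I, had the largest differences of the list. Ndufv1 measured 10.56, 10.75 and 10.39 in control and 9.72, 9.50 and 9.61 in treated ES cells, and 11.51 and 11.37 against 11.99 and 12.11 in differentiated cells. Its effects were -0.96 ± 0.14 and 0.61 ± 0.09 (difference 1.56 ± 0.18, adjusted p = 6.2e-05). Ndufb3 had effects of -0.96 ± 0.12 and 0.37 ± 0.07. Groups did not overlap for either gene at either stage. Opposite members came from complex I (Ndufs1, Ndufa9, Ndufb5 and Ndufb8 beside the former pair), complex II (Sdhb), complex III (Uqcrc1, Uqcrc2 and Uqcrfs1), complex IV (Cox6c) and the ATP synthase (Atp5o). Cycs, cytochrome c, was the shared member, with effects of 0.36 and 0.98.

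**Figure D4:**
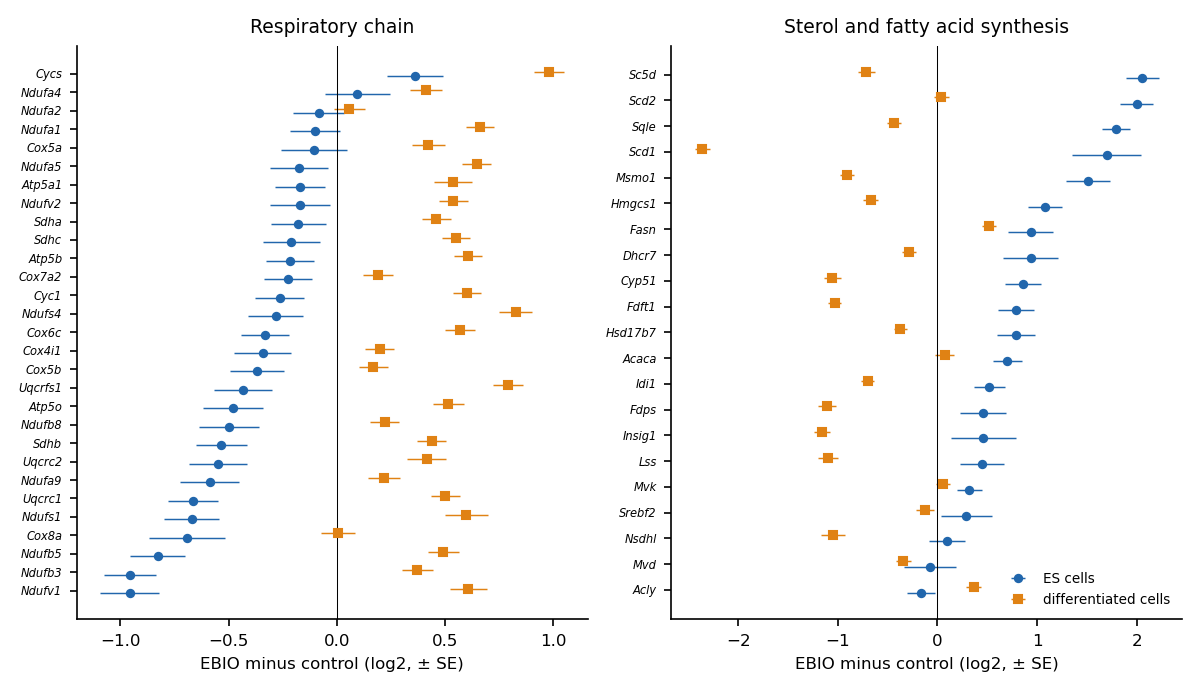
EBIO effect (EBIO minus control, log2, with its standard error) of each tested gene of the respiratory chain (left) and of sterol and fatty acid synthesis (right), in ES cells (circles) and differentiated cells (squares). On the left most circles lie below 0 and most squares above it, as for Ndufv1 at -0.96 and 0.61, and on the right the sides are exchanged, as for Scd1 at 1.70 and -2.36.

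Fatty acid oxidation and heart fuel genes had a median difference of 0.52, with 9 of 16 tested members more positive in differentiated cells and 2 more negative, against 20.8% and 24.9% of all genes. Fabp3, the fatty acid carrier of heart muscle, fell from 12.11, 11.91 and 11.43 to 9.82, 10.06 and 9.62 in ES cells and rose from 10.13 and 10.17 to 10.69 and 10.72 in differentiated cells. Hadha, a subunit of the mitochondrial trifunctional protein, had effects of -0.63 ± 0.18 and 0.86 ± 0.07. Etfa and Acadm were the other opposite members. Heart muscle markers rose with EBIO in differentiated cells, as given above, and their part in these changes was not tested.

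Contractile and calcium-handling genes of the heart were compared in part. Of 30, 16 passed the rule, since many heart genes are dim in ES cells, and 12 lay above the median in all 4 groups. The difference was more positive in differentiated cells for 14, of which 10 lay above the median in all 4 groups, and more negative for 1, Tpm1, against 20.8% and 24.9% of all genes. In class, 7 were differentiated-specific and higher, 4 opposite, 4 shared and higher, and 1, Casq2, had none. Ttn encodes the sarcomere spring titin. It measured 5.70, 5.72 and 6.25 in control and 4.80, 4.78 and 4.20 in treated ES cells, and 7.33 and 7.26 against 12.38 and 12.42 in differentiated cells. Its effects were -1.30 ± 0.21 and 5.11 ± 0.07, the largest difference of the list at 6.4 ± 0.29.

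The other opposite heart genes were Actn2, Myl7 and Tcap, of which Actn2, sarcomeric alpha-actinin, ended below the array median in ES cells. Actn2 had effects of -0.71 ± 0.17 and 3.92 ± 0.08. The natriuretic peptide gene Nppb and the thin-filament genes Actc1, Tnnc1 and Tpm1 were raised at both stages. Nppb measured 4.72, 4.50 and 4.36 in control and 5.54, 5.96 and 5.55 in treated ES cells, and 7.07 and 7.46 against 11.30 and 11.18 in differentiated cells. Of the pacemaker and conduction list 11 genes passed, with 10 more positive in differentiated cells, against 20.8% of all genes, and Cacna1g, a T-type calcium channel, more negative. Only 6 of the 11 lay above the median in all 4 groups, and 5 of those were called more positive. Tbx3, a transcription factor of both the sinus node and naive ES cells, measured 8.08, 8.44 and 7.95 in control and 6.61, 6.90 and 6.92 in treated ES cells. In differentiated cells it measured 5.23 and 4.85 in control, below the median on average, and 8.07 and 7.77 with EBIO, giving effects of -1.35 ± 0.16 and 2.88 ± 0.15.

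Of 9 tested cardiac transcription factors, 5 had a more positive effect in differentiated cells, against 20.8% of all genes. In 4 of them, Hopx, Isl1, Nkx2-5 and Tbx5, the gene rose there, and in the other, Foxh1, it fell in ES cells. Gata6, Hand1 and Smyd1 had no class. Nkx2-5, an early cardiac factor, measured 5.89, 5.61 and 5.07 in control and 5.62, 5.55 and 5.19 in treated ES cells, an effect of -0.07 ± 0.22 (adjusted p = 0.81, not called). In differentiated cells it rose from 6.19 and 6.38 to 9.18 and 9.13. Isl1, a factor of cardiac progenitors and of the sinus node, and Tbx5 rose in differentiated cells by 3.43 ± 0.07 and 3.06 ± 0.13, with -0.23 ± 0.16 and -0.23 ± 0.15 in ES cells (not called). Mef2a was the shared member, raised by 1.11 and 1.04.

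The largest differentiated-specific rises were those of Xirp1, Pln, Cacna2d2 and Asb2. Pln encodes phospholamban, the brake on the calcium pump of the sarcoplasmic reticulum. It measured 4.74, 4.50 and 4.63 in control and 4.77, 4.40 and 4.47 in treated ES cells, close to the array median, and 7.68 and 7.74 against 11.71 and 11.87 in differentiated cells. The effects were -0.08 ± 0.14 and 4.08 ± 0.08. Xirp1, an actin-binding protein of intercalated discs, Cacna2d2, a calcium channel subunit, and Asb2, a muscle ubiquitin ligase subunit, rose by 4.29, 4.01 and 4.0 in differentiated cells, and their ES groups overlapped. The rise of Xirp1 is a lower bound, since it began below the median.

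The largest falls of this class were those of Saa3, Col1a2, Tyrobp and Csf1r. Saa3, an acute-phase gene, measured 13.19 and 13.45 in control and 5.72 and 5.02 in treated differentiated cells, a fall of 7.95 ± 0.22. Col1a2, a fibrillar collagen chain, fell by 7.61 ± 0.13. Tyrobp and Csf1r, a signalling adaptor and the growth factor receptor of macrophages, fell by 6.75 ± 0.09 and 6.66 ± 0.14. In ES cells all 4 lay between 4.31 and 5.03 on every array, near the array median, where a fall is compressed. Only 6 of 18 macrophage and leukocyte genes passed, and 0 of these lay above the median in all 4 groups.

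Marker sets of these cell types moved with the EBIO groups of the differentiated stage. The 6 macrophage markers averaged 10.61 to 10.96 on control arrays and 4.33 to 4.40 with EBIO, where all 6 were below the array median. In ES cells they averaged 4.18 to 4.56, with Ptprc, C1qa and C1qb below the median on every array. Endothelial markers averaged 7.30 to 7.32 in control and 4.73 to 4.75 in treated differentiated cells, with Tie1 below the median on every control array. Their average was lower with EBIO in ES cells too, at 5.07 to 5.23 in control and 4.14 to 4.31 in treated cells. Pecam1, 1 of these 5 markers and also listed with the naive pluripotency genes, fell by 2.92 there. Cdh5 was below the median on every ES array, so the lower ES average is not read as a change of the whole set. Of 12 tested endothelial genes 4 were shared and lower, against 9.63% of all genes, and 5 differentiated-specific and lower, against 7.2%. Liver and visceral endoderm markers averaged 9.04 to 9.27 in control and 5.29 to 5.42 in treated differentiated cells. Ttr and Apoa1, secreted products of endoderm, fell by 4.07 ± 0.17 and 4.08 ± 0.19, and Sox18, an endothelial factor, by 2.36 ± 0.07, none of them called in ES cells. The part of these cell types in the stage differences was not tested.

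Only 174 of the 621 strong differentiated-specific genes also passed the level rule set at the 75th percentile, against 336 of 468 strong ES-specific ones, 94 of 150 opposite and 219 of 387 shared. Genes of the interferon and antigen presentation list were in several classes. H2-K1, a class I antigen-presenting molecule, measured 7.41, 7.40 and 7.34 in control and 8.73, 9.23 and 8.96 in treated ES cells, and 10.29 and 10.37 against 8.12 and 8.20 in differentiated cells. It and H2-D1, another class I molecule, were opposite, with effects of 1.59 ± 0.15 and -2.17 ± 0.07 for H2-K1 and of 1.67 ± 0.15 and -1.87 ± 0.10 for H2-D1. Class I genes have near-identical relatives whose probe sets may read each other, and 1 other H2-D1 probe set had the opposite sign in differentiated cells. B2m, their common light chain, had effects of 0.97 and -1.21.

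Epithelial genes divided by class. Of 16 tested, 13 were more negative in differentiated cells and 1 more positive, against 24.9% and 20.8% of all genes. The simple keratins Krt8, Krt18 and Krt19 were opposite, with effects of 4.75 and -0.43 for Krt8 and of 4.08 and -0.75 for Krt18. Krt7 fell by 6.34 ± 0.07 in differentiated cells, with 0.47 ± 0.21 in ES cells, where its control arrays were below the median. With EBIO it was below the median in differentiated cells too. Epcam, Cldn4, Esrp1 and Grhl2, an adhesion molecule, a claudin, a splicing factor and a transcription factor of epithelia, were lower at both stages. The 4 epithelial markers averaged 8.12 to 8.43 and 8.92 to 9.27 in control and treated ES cells, and 9.81 to 9.90 and 6.36 to 6.65 in differentiated cells. In ES cells only Krt19 among them rose clearly, by 3.78. The others had effects there of -0.45 (Epcam), 0.10 (Cdh1) and -0.41 (Cldn7), so the higher ES average is that of Krt19 and not of the set.

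The 5 leading shared falls were Ifitm3, Nupr1, Ifitm1, Apoe and Pcolce. Ifitm3 and Ifitm1 encode interferon-induced transmembrane proteins that are also abundant in ES cells and the early germ line. Ifitm1 measured 12.15, 12.20 and 11.80 in control and 6.09, 5.93 and 6.33 in treated ES cells, and 11.33 and 11.45 against 6.60 and 7.11 in differentiated cells. It fell by 5.93 ± 0.16 (60.9-fold) and 4.54 ± 0.17 (23.2-fold). All 5 were chosen among genes whose groups did not overlap at either stage. Ifitm3 fell by 5.66 ± 0.22 and 7.70 ± 0.09, and the latter is a lower bound since it ended below the median. The fall was larger in differentiated cells as deposited (difference -2.04 ± 0.31), but the difference was 0.89 after centring and scaling.

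Apoe, the apolipoprotein of cholesterol transport, measured 12.34, 12.11 and 11.82 in control and 7.54, 8.07 and 7.82 in treated ES cells. In differentiated cells it measured 12.14 and 12.36 in control and 8.33 and 7.80 with EBIO. The falls were 4.28 ± 0.18 and 4.19 ± 0.18, and their difference was 0.10 (95% interval -0.56 to 0.75, not called), but 2.18 after centring and scaling, where it was called. Nupr1, a stress-response chromatin protein, fell by 4.57 ± 0.32 and 4.91 ± 0.14, ending below the median at both stages. Its difference was -0.34 and not called as deposited, and 1.67 and called after centring and scaling. Pcolce, an enhancer of procollagen processing, fell by 3.83 ± 0.33 and 4.17 ± 0.08, and its difference of -0.33 had no settled direction. It was not called with all arrays as deposited, was -0.78 and called without the second EBIO array of ES cells, and was 1.49 and called after centring and scaling.

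The 5 leading shared rises were Mfap3l, Cited1, Peg10, Prkd1 and Tspan2. Cited1, a transcriptional coactivator, measured 4.79, 4.54 and 4.53 in control and 7.30, 6.98 and 7.55 in treated ES cells, and 5.69 and 6.27 against 10.20 and 9.97 in differentiated cells. It rose by 2.66 ± 0.17 and 4.11 ± 0.19, and the called difference of 1.45 was 0.20 and not called after centring and scaling. Tspan2, a tetraspanin, rose by 3.80 ± 0.16 and 2.08 ± 0.09. Prkd1, protein kinase D1, rose by 2.51 ± 0.14 and 2.13 ± 0.13. Peg10, an imprinted gene of retrotransposon origin, and Mfap3l began below the median at both stages and rose by 2.73 and 2.64 and by 2.75 and 2.85. On the values as deposited, intervals of the difference ran from -0.78 to 0.60 for Peg10 and from -0.73 to 0.91 for Mfap3l, so effects unequal by up to that much remain possible. After centring and scaling the difference was called for Peg10 (-1.10) and Prkd1 (-1.19). After quantile normalization it was called for Peg10 (-0.95), so under both scalings the Peg10 difference lay outside its interval.

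**Figure D5:**
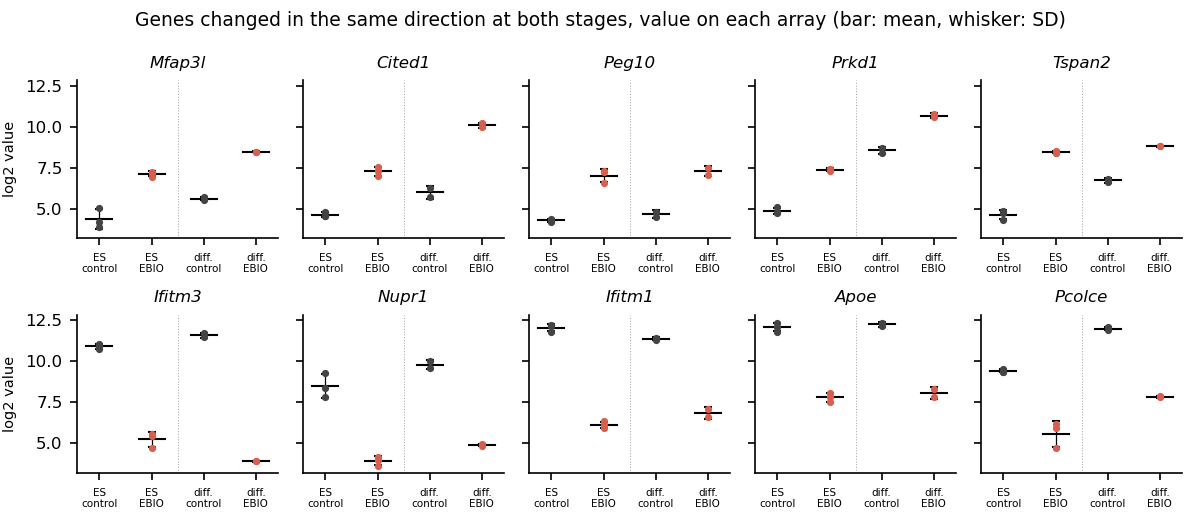
Log2 value on each array for the 5 genes with the strongest shared rise (top) and the 5 with the strongest shared fall (bottom), in control (grey) and EBIO (red) arrays, with the mean as a bar and the SD as a whisker. Each gene moves in the same direction on both sides of the dotted line, as Ifitm1 does with falls of 5.93 and 4.54.

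Of 16 tested smooth muscle and SRF-dependent genes, 10 rose at both stages, against 12.1% of all genes tested. SRF, a transcription factor that answers to actin dynamics, binds the CArG box and drives contractile genes. All 16 lay above the median in all 4 groups, and the difference was more negative in differentiated cells for 10 and more positive for 3, against 24.9% and 20.8% of all genes. Des, desmin, fell at both stages, while Cnn1, Myl9 and Lmod1 had the more positive effect in differentiated cells. The median effect was 1.98 in ES cells and 0.41 in differentiated cells. Acta2, smooth muscle actin, measured 7.72, 5.70 and 6.37 in control and 11.84, 11.44 and 11.34 in treated ES cells, and 12.97 and 12.81 against 13.85 and 13.97 in differentiated cells. It rose by 4.94 ± 0.43 and 1.02 ± 0.09, a difference of -3.92 ± 0.61, but the difference was -0.26 (adjusted p = 0.47) when all probe sets of the gene were averaged, the others not passing the level rule. Srf itself rose in a like amount at both stages, from 6.23, 6.41 and 6.54 to 8.17, 8.03 and 7.98 in ES cells and from 8.59 and 8.57 to 10.39 and 10.51 in differentiated cells. Cald1, caldesmon, rose by 3.43 ± 0.24 in ES cells, with -0.02 ± 0.07 in differentiated cells, although 2 of its other probe sets had the opposite sign there.

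The CArG box stood in 8 of 127 strong shared rises with a promoter entry (6.3%), against 1.2% of tested genes and 1.4% of all promoters. The genes were Acta1, Arid3b, Arrdc4, Cited1, Fhl1, Myl9, Srf and Stbd1, and the promoter of Srf held 2. Acta1 and Myl9 encode an actin and a myosin light chain of contractile cells. Effects in ES and differentiated cells were 4.12 and 1.26 for Acta1, 1.42 and 2.44 for Myl9 and 1.67 and 1.87 for Srf. The stretches lie at chr8:123894824-123894863 (Acta1, minus strand), chr2:156775288-156775327 (Myl9, plus strand), chr17:46556220-46556259 and chr17:46556200-46556239 (Srf, minus strand) and chrX:102252202-102252241 (Cited1, minus strand), with the box in capitals.
Acta1: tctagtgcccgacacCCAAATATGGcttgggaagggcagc
Myl9: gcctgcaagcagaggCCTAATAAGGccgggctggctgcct
Srf, first box: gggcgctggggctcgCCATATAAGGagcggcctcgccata
Srf, second box: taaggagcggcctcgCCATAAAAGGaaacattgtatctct
Cited1: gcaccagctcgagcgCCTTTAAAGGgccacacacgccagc

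The list of YAP and TEAD targets, which respond to cell shape and tension, also holds the factors themselves. Of 16 tested, 14 had a more negative effect in differentiated cells and 0 a more positive one, against 24.9% and 20.8% of all genes, 7 were shared and higher, against 12.1%, and the median effects were 1.37 and 0.05. Ccn1, a matricellular target, measured 7.01, 6.42 and 7.17 in control and 11.97, 12.07 and 11.60 in treated ES cells, and 10.89 and 10.90 against 11.88 and 11.87 in differentiated cells. Lats2, a kinase that restrains YAP, rose by 3.20 ± 0.24 in ES cells from below the median, with -0.05 ± 0.11 in differentiated cells. Nuak2 was opposite, with effects of 1.31 ± 0.22 and -1.04 ± 0.11. Yap1 itself had effects of 0.08 and -0.01 and was called in neither stage.

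The largest ES-specific rises were those of Lrp2, Amot, Phlda1 and Samd4. Lrp2 encodes megalin, an endocytic receptor. It measured 4.65, 4.22 and 6.16 in control and 9.10, 9.06 and 9.99 in treated ES cells, a rise of 4.37 ± 0.47. In differentiated cells it measured 6.53 and 6.56 in control and 6.51 and 6.44 with EBIO (-0.07, not called). Amot, angiomotin, which holds YAP in the cytoplasm, rose by 4.23 ± 0.39 with -0.02 ± 0.08 in differentiated cells. Phlda1, an ERK-responsive gene, rose by 4.03 ± 0.18 with 0.16 ± 0.08. Samd4, an RNA-binding protein, rose by 4.02 ± 0.23 from below the median with 0.07 ± 0.07, while 1 of its other probe sets had the opposite sign in differentiated cells. The high reading of the passage 27 control is shared by Lrp2 and by Amot, at 4.23, 4.11 and 5.68. The ES groups stayed apart, as the choice of these genes required.

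The largest ES-specific falls were those of Trim2, Ntn1, Phc1 and Nodal. Trim2, a ubiquitin ligase, fell by 4.81 ± 0.33 to below the ES array median, with 0.25 ± 0.17 in differentiated cells. Ntn1, the guidance cue netrin-1, measured 8.18, 8.44 and 8.27 in control and 4.56, 4.70 and 5.00 in treated ES cells, and 7.33 and 7.25 against 7.36 and 7.30 in differentiated cells. Phc1, a Polycomb protein abundant in ES cells, fell by 3.16 ± 0.19, with -0.02 ± 0.07. Nodal, the ligand that sustains the primed state and patterns the embryo, fell by 3.12 ± 0.14, with 0.34 ± 0.13 in differentiated cells, where its control arrays were below the median.

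Pluripotency genes could be compared only in part, because many are dim after differentiation. Of 18 core genes with a named probe set 7 passed, and of 19 naive genes 12, of which 9 lay above the median in all 4 groups. The naive list had a median effect of -1.81 in ES cells and 0.10 in differentiated cells. In it 7 members, 5 of them above the median in all 4 groups, were more positive in differentiated cells and 1 more negative, against 20.8% and 24.9% of all genes. The exception was Socs3, which dampens LIF and STAT3 signals, with effects of 1.17 ± 0.16 and -2.87 ± 0.17. Klf2, Nr5a2, Tfcp2l1 and Pecam1 were lower at both stages. Tet1, an enzyme that oxidises methylcytosine, measured 10.49, 10.42 and 10.76 in control and 6.17, 5.62 and 6.55 in treated ES cells, and 7.52 and 7.29 against 7.72 and 7.79 in differentiated cells, with 1 other probe set of the opposite sign there. Dppa5a fell by 3.80 ± 0.12 in ES cells, with -0.62 ± 0.30 in differentiated cells. Of the 7 core genes 4 were more positive in differentiated cells and 1 more negative, against 20.8% and 24.9% of all genes. The latter was Sox2, which was lower at both stages, with effects of -0.69 and -2.3 and a difference of -1.62.

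Signalling genes gave mixed classes. The BMP-responsive factors Id1 and Id3, inhibitors of differentiation, were opposite, with effects of 2.68 ± 0.20 and -0.56 ± 0.11 for Id1 and of 2.32 ± 0.21 and -0.77 ± 0.12 for Id3. Id4 and Smad6 of the same list were opposite in the other direction. Wnt4, a Wnt ligand, measured 6.41, 6.05 and 5.92 in control and 8.21, 8.32 and 7.97 in treated ES cells, and 9.85 and 9.89 against 7.68 and 7.64 in differentiated cells. Dkk1, a Wnt antagonist, had effects of 1.05 ± 0.27 and -1.86 ± 0.12, both bounded by groups below the median. The median difference of the Wnt list was -0.44 as deposited and 0.30 after centring and scaling, and that of the ERK list -0.22 and 0.27, so neither list had a settled direction. Ccnd1, cyclin D1, was lower at both stages, at 8.17, 8.54 and 9.01 against 5.37, 4.92 and 5.57 in ES cells and 10.48 and 10.58 against 7.01 and 7.04 in differentiated cells.

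Targets of the aryl hydrocarbon receptor and NRF2, which govern xenobiotic and oxidant responses, differed within the list. Nqo1, a quinone reductase, fell by 1.67 ± 0.27 in ES cells and rose by 0.76 ± 0.08 in differentiated cells, and Tiparp had effects of -0.79 ± 0.13 and 1.03 ± 0.08. Ahr and Hmox1 were opposite the other way. Glutathione transferases Gsta3, Gsta4, Gstm1 and Gstm2 were lower at both stages. Endoplasmic reticulum chaperones were more negative in differentiated cells for 11 of 17 tested members, against 24.9% of all genes, with Pdia3 at 0.90 ± 0.12 and -0.69 ± 0.07 and Dnajc3 at 1.05 ± 0.16 and -0.48 ± 0.10, while Herpud1 was opposite the other way. Of p53 targets 9 of 15 were more negative in differentiated cells, against 24.9% of all genes. Btg2, an antiproliferative gene, had effects of 1.05 ± 0.15 and -1.03 ± 0.07, and Sesn1 of 1.07 ± 0.23 and -0.91 ± 0.07.

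Of 24 mitosis genes 9 were shared and lower, against 9.63% of all genes, and 9 differentiated-specific and lower, against 7.2%. The 1 opposite gene was Mki67, whose ES groups overlapped and whose difference of -1.18 was -0.85 and not called after centring and scaling and -1.02 and not called without the first control array of differentiated cells. Their median difference was -0.55 as deposited and -0.07 after centring and scaling, against 0.02 and 0.18 over all genes. Of 25 DNA replication genes 10 were shared and lower, against 9.63% of all genes, and 5 differed in each direction, with a median difference of -0.01 as deposited and 0.47 after centring and scaling. Mcm2, Mcm3, Mcm4 and Mcm5, parts of the replicative helicase, were among the shared falls. Cdc6, which loads that helicase, was opposite, at 0.57 ± 0.18 and -0.63 ± 0.09. The inhibitor Cdkn2b rose by 3.22 ± 0.19 in ES cells and fell by 0.69 ± 0.07 in differentiated cells. Of 20 cytosolic ribosomal protein genes 17 had no class, and Rpl37 and Rps9 were ES-specific and Rps27 differentiated-specific.

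Neural genes had no common direction, with 4 of 14 tested members more positive in differentiated cells and 4 more negative, against 20.8% and 24.9% of all genes. Pax6, an eye and brain transcription factor, measured 6.32, 6.69 and 5.90 in control and 4.70, 4.90 and 4.17 in treated ES cells, and 4.58 and 4.43, below the median, against 6.0 and 6.36 in differentiated cells. Gap43, a growth cone protein, went the other way, with effects of 1.40 ± 0.17 and -2.41 ± 0.11. Ets1, a transcription factor of the endothelial list, had effects of 3.79 ± 0.28 and -1.25 ± 0.08.

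The channels on which EBIO acts gave no called stage difference with all arrays. Kcnn4, the intermediate-conductance channel, had effects of -0.36 ± 0.14 (adjusted p = 0.057) and -0.10 ± 0.07 (adjusted p = 0.26), and a difference of 0.26 with a 95% interval from -0.13 to 0.66. Kcnn1 had effects of -0.34 ± 0.18 (adjusted p = 0.15) and -0.68 ± 0.08 (adjusted p = 0.00069), and a difference of -0.34 with an interval from -0.89 to 0.20, which was -0.51 and called (adjusted p = 0.05) without the first control array of ES cells. Kcnn1 ranged from 4.72 to 5.57 in ES cells and from 5.07 to 5.88 in differentiated cells, and Kcnn4 from 5.07 to 5.70 and from 5.89 to 6.05, all near the array medians given above, where changes are understated. Kcnn2 and Kcnn3 did not pass the rule, nor did Pou5f1, Nanog, Myh6, Shox2 and Cyp1a1, each dim at 1 of the stages, and Hcn4 is not analysed here. For these genes a response in the dim stage could not be measured, so no stage difference is given.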

How the data were processed

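Expression was measured on 10 Affymetrix arrays, and the values are log2 expression that the authors deposited after RMA, per the submitters' processing notes; further steps are not given in the sources used here. Values were used as deposited. Of 45101 probe sets, 34945 carried 1 gene symbol, 932 several and 9224 none, and the 18193 named genes were each read from the probe set that was brightest on average, 9010 genes having several. A disagreement with another probe set was counted only where that probe set also passed the level rule. Arrays carry no read depth, and their number limits the precision.

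Effects were fitted with limma 3.58.1 in R 4.3.3 (lmFit, eBayes), each stage's EBIO effect within its own arrays and the difference in 1 fit of all 4 groups, over the 11092 genes that passed the level rule, with Benjamini-Hochberg adjustment over all of them and a threshold of 0.05. Errors after effects are standard errors. Named genes were, of the strong responses whose arrays did not overlap, 6 opposite in each direction and 5 shared in each direction ranked by the smaller of both effects, and 4 of each specific class in each direction with under 0.5 in the other stage ranked by the effect in the responding one, leaving out genes with another probe set of the other sign there. Added were the 2 members with the largest difference of each list with at least 3 opposite or specific members, and a fixed set (107 genes in all); members and lists were chosen with earlier results of these data known. The call of the difference was tried on simulated data. These had 1 spread per gene for all arrays, unlike the unequal spreads of the stages here, and did not test the classes. Replicate numbers in ES cells, where they give the passage, had correlations of deviations of 0.316, 0.223 and 0.621; in the 2 pairs of differentiated cells the correlation was -0.135. Promoters came from RefSeq (GRCm38.p6), with 8997 of the 11092 genes matched. Alternatives covered the level rule, the probe set rule, scaling, blocks, the spread estimate and leaving out each array. Python 3.11.15 with pandas 2.3.3 and matplotlib 3.10.9 handled tables and figures.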

Additional observations from a re-analysis of the deposited data

Results flagged for a closer look

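Among the 107 genes named, the EBIO effect differed between stages for 99 (limma, all arrays, adjusted p under 0.05), against 45.7% of all genes tested, and most of the 107 were chosen by their effects or differences, so that share is a description. Values in brackets are the effect in differentiated cells minus that in ES cells, in log2 units, and a value that begins or ends below an array median is a lower bound in size. For some opposite genes the difference lay mostly in ES cells. In differentiated cells the effect was -0.22 for Dusp5, -0.29 for Sparc, -0.42 for Tpm4 and 0.35 for Tet1. Their effects in ES cells were 3.10, 2.62, 2.85 and -4.44. No explanation was tested for any of the genes named.

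Opposite genes that rose in ES cells and fell in differentiated cells were Krt19 (-8.33), Igfbp4 (-7.41), Afap1l2 (-6.90), Thbs1 (-5.60), Gulp1 (-5.20), Lgals1 (-6.02), Socs3 (-4.04), Tpm4 (-3.28), Nuak2 (-2.35), Fosl2 (-5.53), Anxa2 (-5.57), S100a6 (-5.32), Bgn (-6.93), Sparc (-2.91), Timp2 (-5.09), Timp1 (-4.51), Dusp5 (-3.31), Id1 (-3.23), Id3 (-3.09), Wnt4 (-4.25), Dkk1 (-2.91), Pdia3 (-1.59), Dnajc3 (-1.52), Btg2 (-2.08), Sesn1 (-1.97), Scd1 (-4.06), Sc5d (-2.77), Pfkfb3 (-4.05), Slc2a3 (-3.81), Mki67 (-1.18), Cdc6 (-1.19), Cdkn2b (-3.91), Lgmn (-2.32), H2-K1 (-3.76), H2-D1 (-3.54), Ets1 (-5.04) and Gap43 (-3.82). Opposite genes that fell in ES cells and rose in differentiated cells were Fhod3 (5.22), Usp28 (3.94), Nr1d2 (3.81), Rec114 (5.26), Dusp27 (4.01), Gldc (4.04), Tet1 (4.79), Tbx3 (4.23), Nqo1 (2.44), Tiparp (1.82), Ndufv1 (1.56), Ndufb3 (1.33), Fabp3 (2.54), Hadha (1.49), Ttn (6.4), Actn2 (4.63) and Pax6 (3.39).

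ES-specific rises were Lrp2 (-4.44), Amot (-4.25), Phlda1 (-3.88), Samd4 (-3.96), Cald1 (-3.45), Lats2 (-3.25), Jun (-3.59) and Vim (-3.32). ES-specific falls were Trim2 (5.07), Ntn1 (3.58), Phc1 (3.13), Nodal (3.46), Dppa5a (3.18), Dnmt3a (1.74), Psph (1.37) and Rpl37 (0.86). Differentiated-specific rises were Xirp1 (4.6), Pln (4.16), Cacna2d2 (4.15), Asb2 (4.07), Lama2 (2.69), Isl1 (3.67), Tbx5 (3.29) and Nkx2-5 (2.94). Differentiated-specific falls were Saa3 (-7.77), Col1a2 (-7.62), Tyrobp (-6.67), Csf1r (-6.72), Krt7 (-6.81), Twist2 (-1.95), Igfbp7 (-4.64), Vldlr (-1.42), Rps27 (-0.70), Cdk1 (-1.09), Rrm1 (-1.01), Cdkn2a (-2.81), Ctsz (-2.86), Sox18 (-2.18), Apoa1 (-3.99) and Ttr (-3.84). Genes that moved in the same direction at both stages but by unequal amounts were Cited1 (1.45), Tspan2 (-1.72), Ifitm3 (-2.04), Ifitm1 (1.39) and Acta2 (-3.92). The only other probe set of Igfbp7 that passed the level rule had the opposite sign at both stages, so its fall is uncertain. In differentiated cells 1 other probe set of Sparc and 2 of Dnmt3a had the opposite sign, and in ES cells 1 of Csf1r.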

How the results depend on the processing

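Class counts were compared with the values as deposited. With the spread of each stage in place of the pooled one, 2840 differences were more positive in differentiated cells and 3205 more negative. Among genes tested in both settings, the sign of a called difference turned for 54 with the mean of probe sets. After centring and scaling it turned for 34. With the level rule at the 75th percentile, 1456 genes had a more positive effect in differentiated cells, 754 were ES-specific and 791 differentiated-specific, among fewer genes tested. With stage effects from the fit of 4 groups, 2090 were ES-specific, 1207 differentiated-specific, 939 opposite and 1841 shared. In that setting 813 of the 1302 opposite and 1644 of the 2405 shared genes kept their class and direction. With no filter on dim probe sets 2824 were differentiated-specific. The cause of these changes was not tested. Leaving out 1 array at a time gave 1647 to 2683 more positive and 2219 to 3031 more negative differences, 1998 to 2495 shared, 1068 to 1394 opposite, 961 to 1329 ES-specific and 1109 to 1809 differentiated-specific genes.

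Among the genes named, the sign of the difference, though not of either effect, turned for 7 shared genes, and the cause was not tested. After centring and scaling it was -0.96 for Mfap3l, 0.89 for Ifitm3, 1.67 for Nupr1 and 1.49 for Pcolce, called for the last pair (adjusted p = 0.027 and 0.048). After quantile normalization it was -0.45 for Mfap3l, 0.39 for Nupr1 and -0.39 for Apoe. The mean of probe sets gave 0.07 for Prkd1. Leaving out 1 array at a time gave -0.24 (without the ES control of passage 27) to 0.33 for Mfap3l, -0.32 to 0.13 for Peg10 and -0.17 to 0.36 for Apoe, and leaving out both arrays of passage 27 gave -0.18 for Mfap3l. The call was lost for Vldlr in most settings that left out 1 array (adjusted p up to 0.12), for Psph without the first control or first EBIO array of differentiated cells (1.31 and 1.34), for Rps27 without the second of either (-0.51 each) and for Mki67 without the first control (-1.02), and after centring and scaling for Vldlr, Rps27, Mki67 and Cdk1. Of the 107 named genes 103 stayed in their class after quantile normalization and 94 after centring and scaling.

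With the replicate number as a block, 2739 differences were more positive and 3118 more negative, and 102 of the 107 named genes kept their class. A block in ES cells only gave 3061 and 3337, and crossed numbers in differentiated cells, where same-numbered deviations correlated at -0.135, gave 2829 and 3152; both, like the analysis without passage 27, were chosen after seeing the data. No block moved a count by over 1.5 times or changed the call of a named difference. The number of arrays, 2 a group in differentiated cells, and dim groups limit the precision.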
